A study of Homo sapiens with 16 samples.

Results

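Loci with distant alternative 3' ends are places in the genome where transcripts share the last splice acceptor, and so the start of the last exon, but stop at positions far apart. They were found in full-length cDNA (IsoSeq) transcript models of 2 human cell lines in long use, HT-1080 (from a fibrosarcoma) and HEK-293T (from embryonic kidney, with the large T antigen of SV40). In each terminal exon of the multi-exon models, the 3' ends of all models were sorted and split into end groups wherever neighbouring ends lay over 200 nt apart, and a locus was taken where any terminal exon had at least 2 end groups. The rule found 6302 of 12628 loci with multi-exon models, which were 13120 loci in all with the single-exon loci. It used only the positions of ends pooled over the samples and no siRNA, cell line or expression value.

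The study transfected both lines with 20 nM of an siRNA against HNRNPH1 (siHNRNPH1) or a control siRNA (siNegative) and took RNA after 48 h. Each of the 4 groups had 3 short-read RNA-seq libraries, which the labels call biological replicates, and 1 IsoSeq pool of replicates. The 1 pool per group gives no replicate check, so the shares below carry intervals for counting error only, and no test between pools was made. Models carry no read count, so each model counted once whatever its abundance, and a share of models is not a share of RNA molecules.

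When RNA polymerase II has copied a polyadenylation signal, a complex of CPSF, CSTF and cleavage factors cuts the transcript and a poly(A) polymerase adds the tail. Many human genes carry several such signals in 1 last exon, and the choice among them is alternative polyadenylation. It sets how much 3' untranslated sequence the mRNA keeps, with its sites for microRNAs and RNA-binding proteins. Whether the ends of the models lie at such signals was not tested. An end can also arise where oligo(dT) primes at A-rich sequence within a transcript, which was not checked either. HNRNPH1 is a member of the hnRNP H/F family, which binds runs of guanine in pre-mRNA and is known to act on splicing and on the use of polyadenylation sites.

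A few members hold a whole microRNA gene between their ends, so that a transcript with the proximal end stops before the hairpin and one with the distal end runs through it. By overlap with RefSeq (GRCh38.p14), this held at 7 of the 6302 loci. The mature sequences at 4 of these loci, from RefSeq, show what lies in the stretch that separates the ends. They are written 5' to 3', with the seed (bases 2 to 8, by which a microRNA pairs with its targets) in capitals, and no seed is shared between them.
hsa-miR-12127, in TATDN2: uAGAGGUUcuaaugguccaggguua
hsa-miR-1825, in POFUT1: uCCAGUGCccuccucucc
hsa-miR-4737, in HEATR6: aUGCGAGGaugcugacagug
hsa-miR-1244, in PTMA: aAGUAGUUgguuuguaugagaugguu

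At TATDN2, on the forward strand of chromosome 3, the last exon was 357 nt long at the proximal end and 1996 nt at the distal end. The models that ran to the distal end, past the hairpin, were 10 of 10 in HEK-293T siNegative, 17 of 19 in HEK-293T siHNRNPH1, 7 of 10 in HT-1080 siNegative and 7 of 11 in HT-1080 siHNRNPH1. At POFUT1, whose product adds fucose to Notch and other proteins, few models did so, namely 1 of 5, 1 of 9, 2 of 9 and 1 of 13 in the same order of pools. HEATR6 was like POFUT1, with 1 of 11, 1 of 12, 1 of 3 and 0 of 3. At PTMA, the gene of prothymosin alpha, the distal models were 2 of 2, 5 of 6, 4 of 7 and 4 of 8. Models of POFUT1 and HEATR6 thus mostly ended before the most distal group, and those of TATDN2 mostly ran to it. POFUT1 had 6 end groups and HEATR6, PTMA and TATDN2 had 3 each. Where the hairpin lies among these groups is not given, so models outside the most distal group may also run past it.

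The ends of 1 terminal exon were usually more than 1 kb apart. One terminal exon, the one with most models, stood for each locus. The most proximal and the most distal end were a median of 1439 nt apart, with quartiles of 767 and 2340 nt, and 4113 loci had a distance over 1000 nt. The median last exon measured 555.5 nt at the proximal end and 2341.5 nt at the distal end. The greatest distance, 7733 nt, was at NEK6, a mitotic kinase gene, where 1 of 34 models reached the distal end. There were 2 end groups at 3200 loci, 3 at 1560 and 4 or more at 1542. The highest number, 11, was at PHLDA1, whose 85 models all came from HT-1080. At 1034 loci, 2 or more terminal exons had distant ends. Just inside the rule, 232 loci had a widest gap of 201 to 250 nt, and just outside it, 235 other loci had one of 151 to 200 nt.

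Distant ends were seen more often where there were more models. A locus with distant ends had a median of 25 models and another multi-exon locus 5. Of terminal exons with 2 to 4 models, 17.9% had distant ends, and the share was 38.3% at 5 to 9 models, 56.5% at 10 to 19, 71.7% at 20 to 49 and 81.0% at 50 or more. At 1493 of the 6302 loci the distal group was a single model, and 4708 loci had at least 2 end groups of at least 2 models each. Taken alone, the pools gave like shares of their loci, 39.6% of 8973 in HEK-293T siNegative, 43.4% of 9821 in HEK-293T siHNRNPH1, 41.9% of 10390 in HT-1080 siNegative and 41.3% of 10285 in HT-1080 siHNRNPH1. The HEK-293T siHNRNPH1 pool also had most models, 94847 against 64705, 72186 and 68078 in the other pools in that order.

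Of the 6302 loci, 5946 could be named by a RefSeq gene, 5763 of them protein-coding and 142 long noncoding. The distal end was seen in both lines at 3531 of the 6302 loci, and in all 4 pools at 2580. It was seen in HEK-293T only at 1702 and in HT-1080 only at 1069. The 1493 loci whose distal group was a single model can fall in 1 line only. The HEK-293T siHNRNPH1 pool also had most models, so these counts do not show that a distal end belongs to 1 line. Models on the opposite strand covered part of the stretch between the ends at 619 loci, or 9.82%, against 8.05% of the other loci for the whole last exon. No gene annotation of the files' build was used, so which part of a last exon is untranslated is not given.

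A share per pool could be compared at 383 loci (6.08%), which had at least 10 models of the terminal exon in each pool and, over the pools, at least 5 distal and 5 other models. These loci had 44 to 364 models, with a median of 85, and their ends were a median of 1669 nt apart. The distal share, the percentage of a pool's models of the terminal exon that belong to the most distal end group, ranged over the whole scale. Its median over loci was 48.0% in HEK-293T siNegative, 51.4% in HEK-293T siHNRNPH1, 36.4% in HT-1080 siNegative and 40.7% in HT-1080 siHNRNPH1. The plot of distal shares per locus has the curves of the siRNAs close together within each line, and those of the lines apart.

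**Figure D1:**
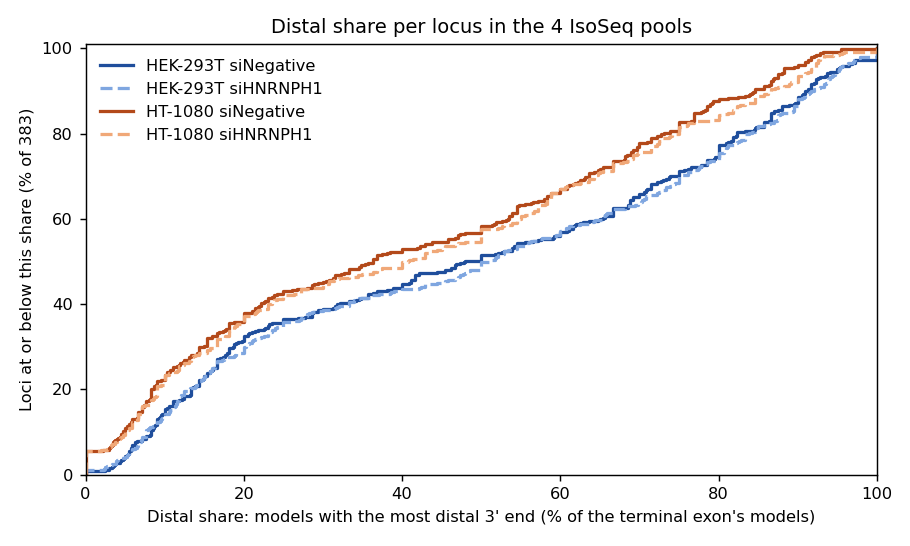
Cumulative share of the 383 loci (y axis, %) at or below each distal share (x axis, % of the models of the terminal exon), 1 line per IsoSeq pool (solid for siNegative, dashed for siHNRNPH1). Both HEK-293T curves lie to the right of both HT-1080 curves over most of the range, with medians of 48.0% and 51.4% against 36.4% and 40.7%.

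Loci with widely spaced ends had a lower median distal share in every pool. Where the ends were up to 1000 nt apart (96 loci), the median distal share was 66.2%, 65.3%, 61.0% and 59.4% in HEK-293T siNegative, HEK-293T siHNRNPH1, HT-1080 siNegative and HT-1080 siHNRNPH1. At 1001 to 3000 nt (237 loci) it was 52.6%, 52.9%, 36.4% and 40.7%. At over 3000 nt (50 loci) it was 17.8%, 15.5%, 8.33% and 9.09%. Models with a far distal end are also longer, and the distal share counts only the last of what may be many end groups. The part of model length and of the number of end groups in this order was not tested.

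Some of the best covered loci show how ends were spread along a last exon. An end group is named here and below by the last-exon length at its most frequent end, and the ends within a group can spread widely around it. Calnexin (CANX, chr5:179728591-179731636, forward strand) is a chaperone of the endoplasmic reticulum, and its 348 models formed 7 end groups from 679 to 3046 nt. Most were in the groups at 2056 nt (151 models) and 2335 nt (114 models), and the distal share was 5.05% (5 of 99), 6.54% (7 of 107), 4.05% (3 of 74) and 2.94% (2 of 68) in the order of pools above. The 296 models of SERBP1, which encodes an mRNA-binding protein, formed 9 end groups, and 134 were in the group at 2226 nt. The 12 SERBP1 models with a last exon of 4993 or 5452 nt all came from HEK-293T, as 5 of 68 with siNegative and 7 of 100 with siHNRNPH1. In HT-1080 they were 0 of 73 and 0 of 55, and a count of 0 in the most distal group still allows 4.93% and 6.49% at the upper 95% limit. The nuclear RNA-binding protein gene HNRNPU was alike, with 180 of its 328 models in the group at 843 nt and its most distal group, at 4205 nt, holding 2 of 81 and 5 of 115 HEK-293T models and in 0 of 67 and 0 of 65 HT-1080 models. The 3 genes share a main end well before the last one, and their distal ends were rare in all pools.

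With siHNRNPH1, the distal share of the 383 loci was slightly higher in both lines, by amounts near the counting error. Summed over loci, it was 45.3% with siNegative (4066 of 8970 models, exact 95% interval 44.3 to 46.4%) and 46.5% with siHNRNPH1 (5683 of 12222, 45.6 to 47.4%) in HEK-293T, a difference of 1.17 points (95% interval -0.19 to 2.53, Newcombe). In HT-1080 it was 39.3% (3255 of 8292, 38.2 to 40.3%) and 41.2% (3217 of 7809, 40.1 to 42.3%), a difference of 1.94 points (0.43 to 3.46). The HT-1080 difference was 0.03 points over the loci with at least 20 models in each pool and 0.30 points where every end group after the first counted as distal. The HEK-293T difference was 1.47 points (0.25 to 2.70) where every end group after the first counted as distal. It was 0.40 points (-1.11 to 1.90) with groups split at 500 nt. Models of 1 locus share their source, so these intervals are narrower than the spread between samples would be. The median difference over loci was 0.33 points in HEK-293T and 0.99 points in HT-1080. In HEK-293T, 194 loci had a higher and 175 a lower distal share with siHNRNPH1, and in HT-1080, 214 and 140.

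Large differences with siHNRNPH1 were few and did not recur in the other line. In HEK-293T, 8 loci (2.09%) were at least 20 points higher and 5 (1.31%) at least 20 points lower, and in HT-1080, 5 (1.31%) and 3 (0.783%). At 0 of the 383 loci (0.0%) did the exact intervals of siNegative and siHNRNPH1 fail to overlap, in either line and either direction. At 0 of them was the difference 20 points or more the same way in both lines. The largest upward difference was at MACF1, which encodes a linker of actin and microtubules, from 7 of 19 to 15 of 20 models in HEK-293T, with 18 of 23 and 16 of 21 in HT-1080. The largest downward difference was at SPAG9, a scaffold of JNK signalling, from 7 of 15 to 5 of 33 in HEK-293T, with 4 of 11 and 5 of 10 in HT-1080. Also lower in HEK-293T was SRSF11, a splicing factor gene, with 6 of 13 and 5 of 30, and 4 of 19 and 3 of 17 in HT-1080. In HT-1080, the largest downward difference was at CNOT1, the scaffold of the CCR4-NOT deadenylase complex, from 6 of 11 to 4 of 16 models, while HEK-293T had 21 of 66 and 18 of 53.

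**Figure D2:**
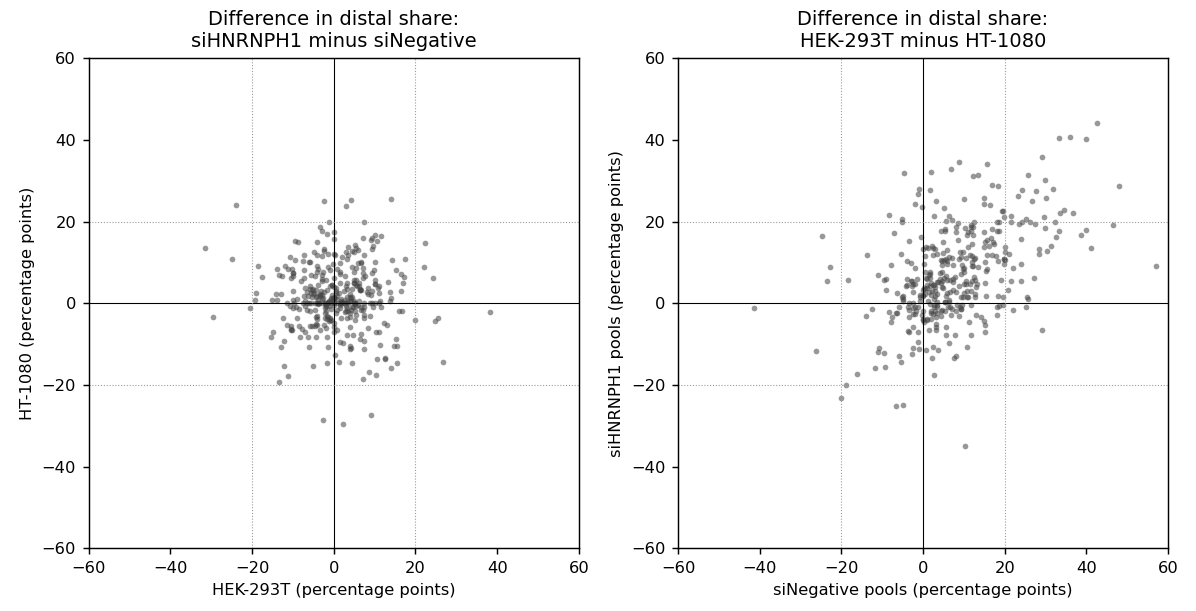
Left, difference in distal share between siHNRNPH1 and siNegative (percentage points) in HEK-293T (x axis) and HT-1080 (y axis). Right, difference between HEK-293T and HT-1080 in the siNegative pools (x axis) and the siHNRNPH1 pools (y axis). Each point is 1 of the 383 loci and dotted lines mark 20 points. The left cloud is centred near 0 with no shared direction, and the right cloud lies mostly above and to the right of 0.

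The siRNA differences did not go together in the lines. Of the 383 loci, 107 were higher with siHNRNPH1 in both lines, 64 lower in both, 169 opposite and 43 equal in at least 1 line. Across the 383 loci, which share their 4 pools, Pearson's r between the differences was -0.036 and Spearman's rho 0.001. The distal shares themselves were close between the siRNAs, with r = 0.963 in HEK-293T and 0.964 in HT-1080, and a median absolute difference of 5.20 and 4.35 points. At least 10 points up in both lines were 8 loci, and at least 10 points down in both were 4.

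Of the loci most clearly higher with siHNRNPH1 in both lines, 7 are described. HUWE1, a ubiquitin ligase (chrX:53532796-53533411, reverse strand), has ends only 400 nt apart, and its distal models were 15 of 29 with siNegative and 20 of 27 with siHNRNPH1 in HEK-293T, and 6 of 17 and 7 of 14 in HT-1080. The intervals overlapped in both lines, at 32.5 to 70.6% and 53.7 to 88.9% in HEK-293T. ZRANB2, a splicing regulator (chr1:71063292-71065137, reverse strand), had 16 of 27 and 22 of 30 in HEK-293T and 5 of 17 and 11 of 20 in HT-1080, the largest upward difference in HT-1080 among the 383 loci at 25.6 points. NAMPT, the rate-limiting enzyme of NAD salvage, had 3 of 19 and 12 of 36 in HEK-293T and 6 of 34 and 10 of 35 in HT-1080. DNM1L (a GTPase of mitochondrial fission), BLOC1S6 (a subunit of a complex for lysosome-related organelles), SF3A1 (a U2 snRNP protein) and PDP1 (a phosphatase of pyruvate dehydrogenase) were 10.0 to 16.7 points higher in each line. Within each of these 7 loci, the intervals of the siRNAs overlapped in both lines. The direction was not kept at ZRANB2, where HEK-293T differed by -1.85 and HT-1080 by 6.18 points both with groups split at 500 nt and with every group after the first as distal. NAMPT differed by 0.0 and 0.08 points with every group after the first as distal, and by -4.29 points in HT-1080 with groups split at 500 nt.

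Among the 8 loci most clearly lower in both lines were the genes of 2 p21-activated kinases, PAK2 and PAK1. PAK2 (chr3:196828319-196832480, forward strand) had 5 end groups, and its most distal end, with a last exon of 4162 nt, was in 3 of 15 and 1 of 13 models in HEK-293T and in 2 of 13 and 0 of 16 in HT-1080. At PAK1 (chr11:77321552-77323360, reverse strand), the distal models were 6 of 19 and 4 of 24 in HEK-293T and 2 of 15 and 1 of 16 in HT-1080. NRAS, a small GTPase of growth factor signalling, had 8 of 10 and 10 of 15 in HEK-293T and 9 of 13 and 5 of 10 in HT-1080. CAST, which encodes calpastatin, the inhibitor of calpain proteases, differed by -8.24 points in HEK-293T and by -8.32 points in HT-1080. GCFC2, KIF2A (a kinesin that depolymerises microtubules), UBE2J1 (a ubiquitin-conjugating enzyme of the endoplasmic reticulum) and CDK16 (a cyclin-dependent kinase) differed by -8.17 to -17.9 points in each line. At each of these loci too, the intervals of the siRNAs overlapped in both lines. Of the 8, CAST and CDK16 kept their direction in both lines under every alternative run. With every group after the first as distal, PAK2 differed by 6.67 and 0.0 points in HEK-293T and HT-1080, NRAS by 0.0 and 7.69, KIF2A by 0.0 and 13.04, UBE2J1 by 0.0 and -1.33, and PAK1 by -5.04 and 1.25. PAK1 gave the same values with groups split at 500 nt. With groups split at 100 nt, the difference was 0.0 at PAK2 and GCFC2 in HT-1080 and at NRAS in HEK-293T.

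**Figure D3:**
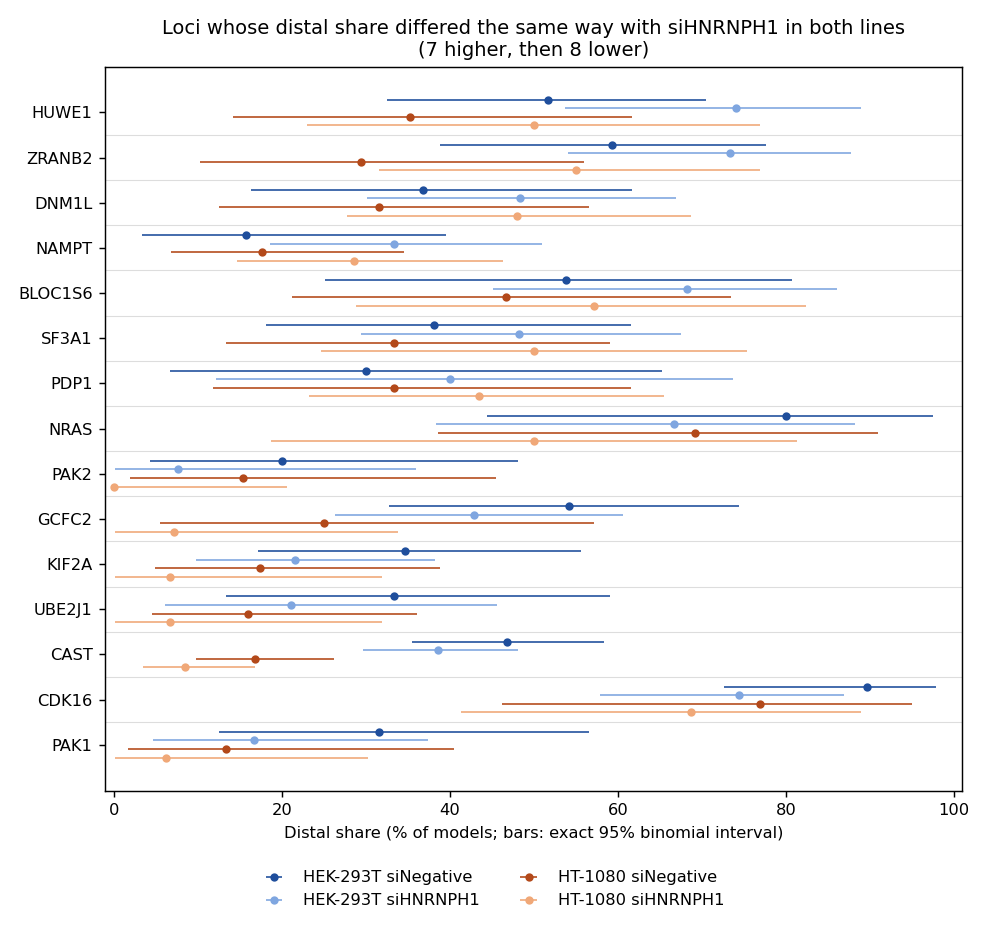
Distal share (x axis, % of models) in the 4 pools at 7 of the loci most clearly higher and the 8 most clearly lower with siHNRNPH1 in both lines, with exact 95% binomial intervals as bars. These loci were chosen for this pattern, and the intervals of siNegative and siHNRNPH1 overlap at each of them in each line.

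The median last-exon length also differed little with siHNRNPH1 at most terminal exons. At single loci it need not follow the distal share. In HT-1080, where both had a higher distal share with siHNRNPH1, the median was 666 nt longer at ZRANB2 and 280 nt shorter at NAMPT. Of 785 terminal exons with at least 10 models in each pool, 643 had distant ends, and 142 did not. With siHNRNPH1 in HEK-293T, 41 (5.22%) were at least 200 nt longer and 24 (3.06%) at least 200 nt shorter, and in HT-1080, 46 (5.86%) and 39 (4.97%). All of these had distant ends, and none of the 142 others moved so far, as the rule leaves them little room to. The median difference over the 643 terminal exons was 0.0 nt in each line, with 90% of them between -131 and 290 nt in HEK-293T and between -268 and 345 nt in HT-1080.

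The lines differed more than the siRNAs did, and in the same direction under both. The summed distal share was 6.07 points higher in HEK-293T than in HT-1080 with siNegative (95% interval 4.60 to 7.54) and 5.30 points higher with siHNRNPH1 (3.90 to 6.70). Models of 1 locus share their source here too, so these intervals are narrower than the spread between samples would be. Such a sum also weights each locus by its number of models in the pool. The median difference over loci, which has no such weights, was 5.98 and 5.72 points. At 229 loci the distal share was higher in HEK-293T under both siRNAs and at 40 it was lower under both. Across the 383 loci, r between the line differences of the siRNAs was 0.49 and rho 0.465. With siNegative, 54 loci (14.1%) were at least 20 points higher in HEK-293T and 6 (1.57%) at least 20 points lower, and with siHNRNPH1, 53 (13.8%) and 5 (1.31%). The comparison of the lines was added after these values were seen.

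The lengths of the models differed in the same direction. The median multi-exon model had 1712 and 1606 nt before its last exon in HEK-293T (siNegative and siHNRNPH1) and 1384 and 1418 nt in HT-1080, although this stretch does not depend on the choice of 3' end. Models over 4000 nt were 25.8% and 20.6% of those in HEK-293T and 15.4% and 17.6% of those in HT-1080. At the 383 loci, the stretch before the last exon was 1792 and 1700 nt against 1593 and 1625 nt. The part of these lengths in the line difference was not tested. At the 16 loci whose distal models were no longer than 2500 nt in the median, the median line difference was 5.77 points with siNegative and 5.61 with siHNRNPH1, and 10 loci were higher and 3 lower in HEK-293T under both. Summed over those 16 loci, the distal share was 54.5% and 57.8% in HEK-293T and 57.1% and 56.0% in HT-1080, so that with siNegative the order of the lines was the opposite. At the 255 loci with distal models over 3500 nt, the median line difference was 5.30 and 5.88 points.

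At 21 loci the distal share was at least 20 points higher in HEK-293T under both siRNAs, and at 1, ARFIP2, at least 20 points lower. OGT, the enzyme that attaches O-GlcNAc to nuclear and cytoplasmic proteins (chrX:71573620-71575890, forward strand), had the greatest difference of the 383 loci with siHNRNPH1 (44.2 points), while with siNegative (42.7 points) BAZ2A, ESYT2 and TLE4 had greater ones. Its distal end, with a last exon of 2271 nt, was in 35 of 44 models in HEK-293T siNegative (79.6%, exact 95% interval 64.7 to 90.2%) and 31 of 40 in HEK-293T siHNRNPH1 (77.5%, 61.6 to 89.2%). In HT-1080 it was in 7 of 19 with siNegative (36.8%, 16.3 to 61.6%) and 8 of 24 with siHNRNPH1 (33.3%, 15.6 to 55.3%). The group at 732 nt held 8 of 19 and 12 of 24 HT-1080 models of OGT, against 6 of 44 and 6 of 40 in HEK-293T. The intervals of the lines did not overlap under either siRNA, while the siRNAs differed by -2.05 and -3.51 points within the lines. Where every end group after the first counted as distal, the line difference at OGT was 5.98 and 7.50 points.

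CAST had the most models of all 383 loci (364). Its last exon (chr5:96772640-96774679, forward strand) had 3 end groups, at 594 nt with 251 models, at 1691 nt with 10 and at 2040 nt with 103. The distal models were 37 of 79 in HEK-293T siNegative (46.8%, 35.5 to 58.4%), 44 of 114 in HEK-293T siHNRNPH1 (38.6%, 29.6 to 48.2%), 15 of 89 in HT-1080 siNegative (16.9%, 9.75 to 26.3%) and 7 of 82 in HT-1080 siHNRNPH1 (8.54%, 3.50 to 16.8%). HEK-293T was higher by 30.0 points with siNegative and 30.1 points with siHNRNPH1, and the intervals of the lines did not overlap under either.

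PPP4R3A, a regulatory subunit of protein phosphatase 4 (chr14:91457619-91458869, reverse strand), has 2 end groups that are 521 nt apart. The distal one held 10 of 15 and 24 of 31 models in HEK-293T and 13 of 39 and 10 of 27 in HT-1080, and the intervals of the lines did not overlap with siHNRNPH1 (58.9 to 90.4% against 19.4 to 57.6%) but did with siNegative. With end groups split at 100 nt, the distal group was a smaller one and the line difference was 4.10 and 3.23 points. TLE4, a corepressor of the Groucho family, had 27 of 28 and 32 of 34 distal models in HEK-293T and 5 of 10 and 12 of 16 in HT-1080, with intervals apart with siNegative only. Non-overlapping intervals between the lines were thus found at CAST, OGT and TLE4 with siNegative (3 of 383, 0.783%) and at CAST, OGT and PPP4R3A with siHNRNPH1 (0.783%), each time with HEK-293T higher.

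**Figure D4:**
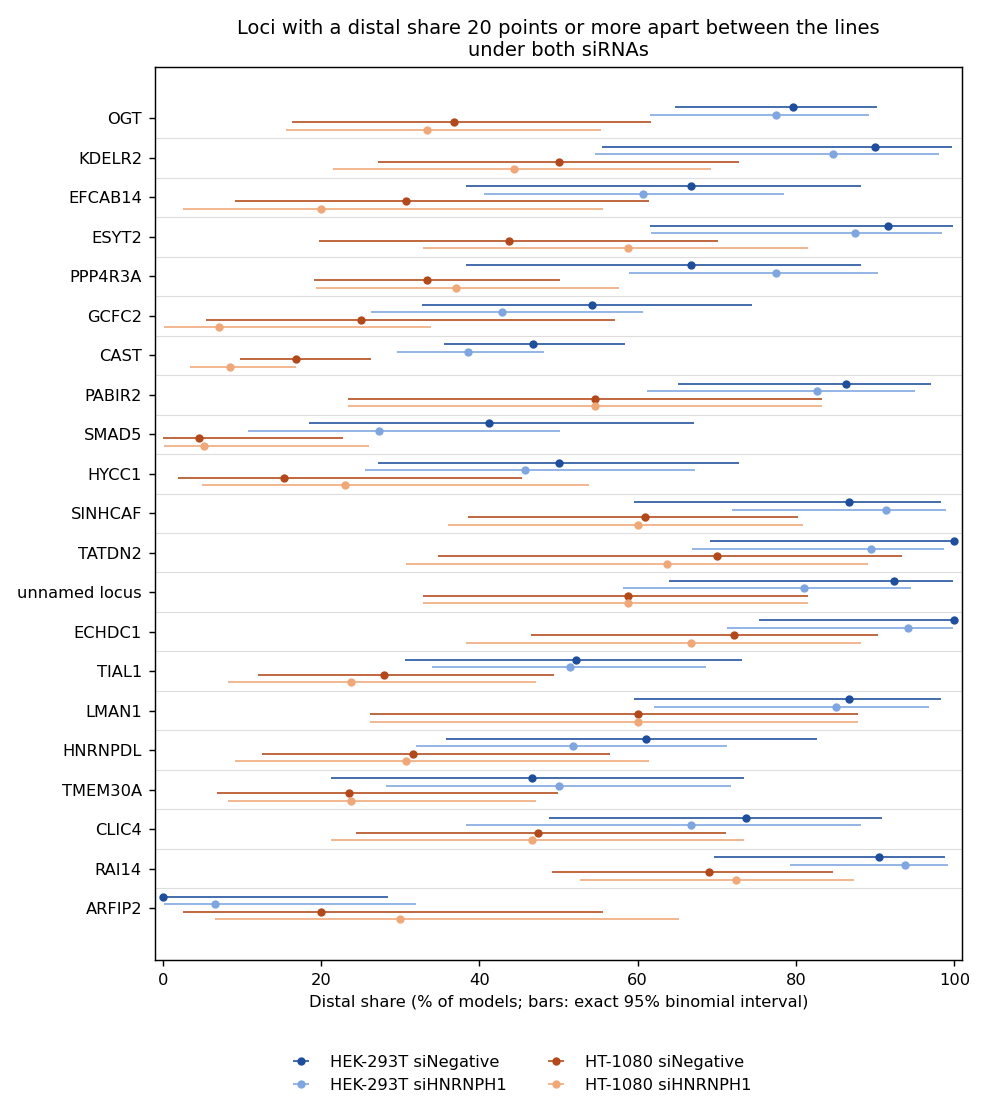
Distal share (x axis, % of models) in the 4 pools at 21 of the 22 loci whose share was 20 points or more apart between the lines under both siRNAs, ordered by the mean difference, with exact 95% binomial intervals as bars. HEK-293T (blue) is higher at 20 of those shown and lower at ARFIP2, and the loci were chosen for this pattern.

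Other genes of the 21 were KDELR2, LMAN1, ESYT2 and TMEM30A. KDELR2, the receptor that returns proteins to the endoplasmic reticulum, had 9 of 10 and 11 of 13 distal models in HEK-293T and 10 of 20 and 8 of 18 in HT-1080. LMAN1, a cargo receptor between endoplasmic reticulum and Golgi, had 13 of 15 and 17 of 20 against 6 of 10 and 6 of 10. ESYT2, a tether of the endoplasmic reticulum to the plasma membrane, had 11 of 12 and 14 of 16 against 7 of 16 and 10 of 17. TMEM30A, the partner subunit of phospholipid flippases, had 7 of 15 and 11 of 22 against 4 of 17 and 5 of 21. At each of these 4 the intervals of the lines overlapped under both siRNAs.

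RNA-binding proteins among them were TIAL1, with 12 of 23 and 18 of 35 distal models in HEK-293T against 7 of 25 and 5 of 21 in HT-1080, and HNRNPDL, with 11 of 18 and 14 of 27 against 6 of 19 and 4 of 13. SMAD5, which carries BMP signals to the nucleus, had its distal end 4779 nt beyond the proximal one, in 7 of 17 and 6 of 22 models in HEK-293T and in 1 of 22 and 1 of 19 in HT-1080. GCFC2 had 13 of 24 and 15 of 35 against 3 of 12 and 1 of 14. With end groups split at 100 nt, the line difference at GCFC2 was 4.17 points with siNegative and 0.0 with siHNRNPH1. Other loci were CLIC4, EFCAB14, SINHCAF, TATDN2, RAI14, ECHDC1, HYCC1, PABIR2 and an unnamed locus on chromosome 8, with 50 to 111 models each. At ARFIP2, which encodes arfaptin 2, the distal models were 0 of 11 and 1 of 15 in HEK-293T and 2 of 10 and 3 of 10 in HT-1080.

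**Figure D5:**
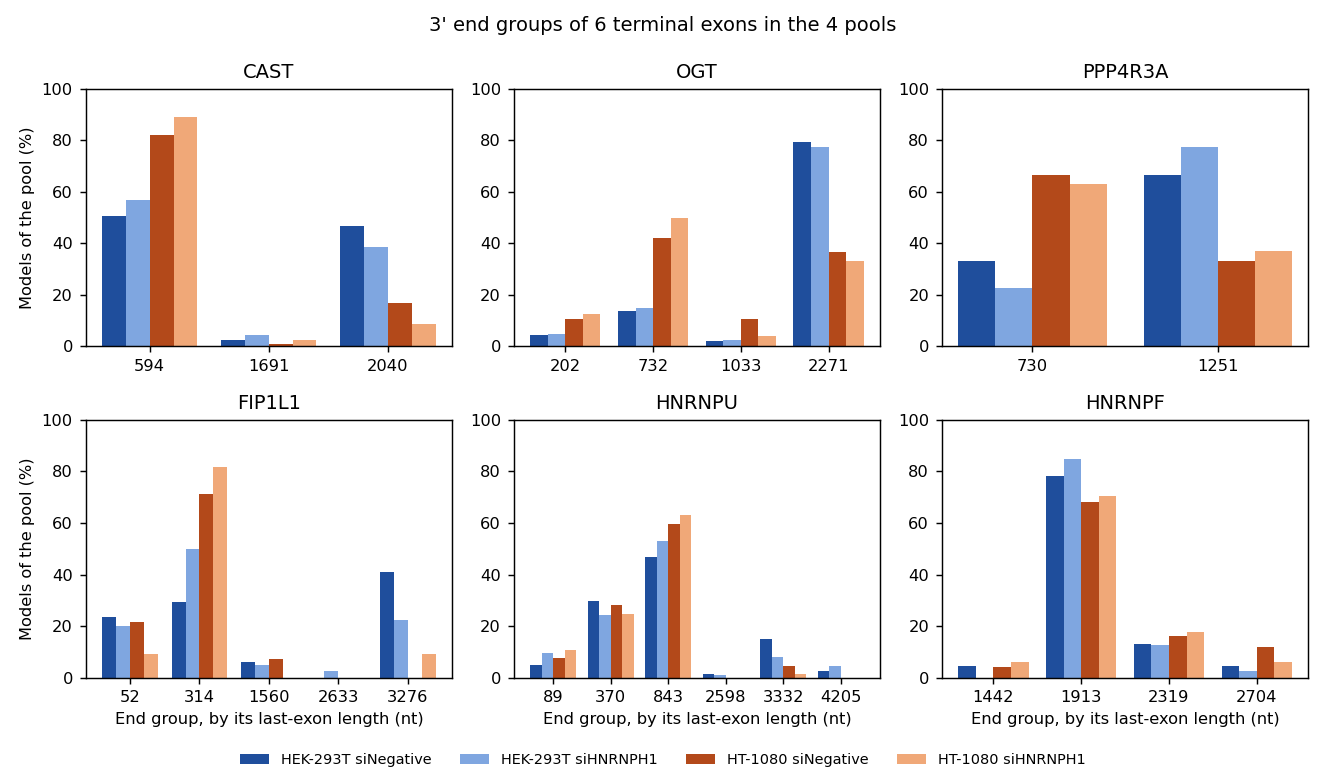
Share of each pool's models (y axis, %) in each 3' end group of 6 terminal exons, with the groups named on the x axis by their last-exon length (nt) at the most frequent end. At CAST, OGT and PPP4R3A the most distal group holds a larger share of the HEK-293T models than of the HT-1080 models, and at HNRNPU (843 nt) and HNRNPF (1913 nt) the largest group is not the most distal one.

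Of genes known for alternative polyadenylation in the last exon, 15 of 20 were among the 6302 loci, and 2 had enough models in each pool. Of all 12628 loci with multi-exon models, 6302 had distant ends. Among terminal exons with 20 to 49 models, 71.7% had them. DICER1, the endonuclease that makes mature microRNAs, had 56 of 100 models in the group at 184 nt and 11 in the group at 4435 nt, and the distal models were 3 of 35 and 6 of 40 in HEK-293T and 1 of 15 and 1 of 10 in HT-1080. PAFAH1B1, the dynein regulator LIS1, had 7 of 18 and 13 of 36 in HEK-293T and 5 of 21 and 12 of 29 in HT-1080. Others had many models in 1 line only. CD44, an adhesion receptor that HT-1080 expresses strongly, had 36 of 68 and 31 of 48 distal models in HT-1080 and 2 of 2 and 1 of 1 in HEK-293T. Cyclin D1 (CCND1), a driver of the cell cycle, had 1 of 34 and 0 of 14 in HT-1080 and 0 of 4 and 0 of 3 in HEK-293T. RAB10, a GTPase of vesicle transport, had 1 of 12 and 1 of 34 in HEK-293T and 1 of 16 and 0 of 15 in HT-1080.

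Of 24 genes of the 3' end processing machinery, 19 were among the 6302 of 12628 multi-exon loci that had distant ends, and 3 had enough models. At FIP1L1, a subunit of CPSF, the end at 3276 nt was in 7 of 17 and 9 of 40 models in HEK-293T and in 0 of 14 and 1 of 11 in HT-1080. CPSF6, of cleavage factor Im, had 9 end groups with last exons of 158 to 4843 nt, and its distal end was in 2 of 12 and 4 of 25 models in HEK-293T and in 0 of 14 and 0 of 12 in HT-1080. PAPOLA, the main poly(A) polymerase, was mostly distal, with 38 of 45, 42 of 47, 24 of 32 and 20 of 25. The order of pools at PAPOLA, highest in HEK-293T, was within the counting intervals.

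Of HNRNPH1 and related genes, all but EIF4G1 among the 7 listed had distant ends, as had 6302 of all 12628 loci with multi-exon models. Most models of HNRNPH1 itself (chr5:179614180-179614959, reverse strand) had the distal end. It was in 30 of 32 and 14 of 14 models in HEK-293T and 10 of 12 and 2 of 2 in HT-1080. HNRNPF, a relative with enough models, had 81 of 105 models in the group at 1913 nt, and its distal end was in 1 of 23, 1 of 40, 3 of 25 and 1 of 17. HNRNPH3 had its distal end in 0 of 23, 0 of 52, 0 of 20 and 1 of 32. AURKA, a mitotic kinase gene with ends only 276 nt apart, had 10 of 14 and 10 of 16 in HEK-293T and 14 of 23 and 8 of 14 in HT-1080.

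Levels of these genes came from the short-read libraries, with 107.7M to 121.0M expected counts per HEK-293T library and 27.3M to 32.7M per HT-1080 library. HEK-293T siHNRNPH1 replicate 1 stood apart from the other replicates of its group. The chi-square divided by its degrees of freedom was 817 and 848 against them, and 9.10 between them. Whether the RNA of this replicate is in the IsoSeq pool is not given in the sources used here. HT-1080 siNegative replicate 2 stood apart to a lesser degree, with 17.4 and 17.2 against the others of its group and 1.76 between them. CPM are counts scaled to the library total (counts per 1M). Of markers set for the lines, CD44 was at 1840 to 3130 CPM in HT-1080 and 1.51 to 2.76 CPM in HEK-293T, and MMP14 and AXL were at least 412 CPM in HT-1080 and at most 2.91 CPM in HEK-293T. NEFM passed the expression filter in HEK-293T only (252 to 490 CPM). NEFL and CDH2 were alike in the lines, LIN28B was higher in HEK-293T, PAX2 was at most 2.20 CPM in both, and S100A4 did not pass the filter in HT-1080.

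The target, HNRNPH1, was at 1107, 1105 and 1121 CPM in the siNegative libraries of HEK-293T and at 234, 376 and 394 CPM with siHNRNPH1. It fell by 1.76 on the log2 scale (SE 0.20, edgeR quasi-likelihood test, Benjamini-Hochberg adjusted p = 0.00939). In HT-1080, it was at 635, 606 and 617 CPM and at 232, 231 and 229 CPM, and it fell by 1.49 (SE 0.04, edgeR adjusted p = 6.76e-09). The groups did not overlap in either line. HNRNPH2, a closely similar relative whose reads may be shared with HNRNPH1, fell by 1.88 in HEK-293T (edgeR adjusted p = 0.00875) and by 0.90 in HT-1080 (3.57e-07). HNRNPH3 rose by 1.10 in HEK-293T (0.0138) and by 0.90 in HT-1080 (7.46e-08). The HEK-293T calls of this paragraph were lost when any siNegative library was left out, with edgeR adjusted p from 0.0689 to 0.107, and those of HNRNPH1 and HNRNPH3 also without siHNRNPH1 replicate 2, at 0.0514 and 0.0658.

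Gene levels at loci with distant ends were set beside those of all genes, with no test between the shares. Of the 6302 loci, 5883 matched 1 gene each in the short-read tables. In HEK-293T, 155 of 5803 tested genes were higher (2.67%) and 262 lower (4.51%) with siHNRNPH1, against 5.12% and 4.88% of all 19966 genes tested. Without siHNRNPH1 replicate 1, the same line gave 38.9% higher and 37.0% lower, against 30.5% and 31.3% of 20329 genes. The 417 genes called by edgeR in either direction were 46 and 127 without siHNRNPH1 replicates 2 and 3, and 4, 0 and 0 without siNegative replicates 1, 2 and 3. With siNegative replicates 2 and 3 left out in turn, 3517 and 3486 of all genes had an unadjusted edgeR p under 0.05. In HT-1080, 1755 of 5729 were higher (30.6%) and 2420 lower (42.2%), against 32.7% and 32.6% of all 16145 genes. Genes of the other multi-exon loci gave 33.9% and 35.9% there. Loci with distant ends have more models, and the part of expression level in these shares was not tested.

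Among the loci with shared differences in distal share, PAK2 had the largest decrease in gene level. It was at 164, 169 and 168 CPM in HEK-293T siNegative and at 22.1, 44.4 and 45.4 CPM with siHNRNPH1, and at 228, 199 and 231 CPM and 121, 117 and 118 CPM in HT-1080. PAK2 fell by 2.20 in HEK-293T (SE 0.28, edgeR adjusted p = 0.0112) and fell by 0.96 in HT-1080 (SE 0.06, 4.45e-07). Its HEK-293T adjusted p was 0.0551 without siHNRNPH1 replicate 2 and 0.0771 to 0.0806 without any one siNegative library. Without siHNRNPH1 replicate 1, PAK2 passed the threshold there, with a log2 fold change of -1.95 (edgeR adjusted p = 2.03e-21). UBE2J1 fell by 0.93 in HT-1080 (edgeR adjusted p = 3.57e-07), PAK1 by 0.48 (1.86e-05) and CAST by 0.33 (0.000295), while CDK16 rose by 0.35 (4.51e-05). In HEK-293T, none of these 4 passed the threshold, with log2 fold changes of -0.62, 0.24, -0.31 and 0.23 and adjusted p from 0.058 to 0.483. Without siHNRNPH1 replicate 1, UBE2J1, PAK1 and CAST passed it there, with log2 fold changes of -0.50, 0.17 and -0.16 (edgeR adjusted p = 5.12e-11, 0.000215 and 0.000125). Of the 8 genes with a lower distal share, 6 were lower and 2, CDK16 and NRAS, higher in HT-1080 by the edgeR test, where 32.6% of all genes were lower and 32.7% higher, and 46.4% and 27.5% of the 371 genes at loci with enough models. GCFC2 fell by 0.20, but its adjusted p was 0.0669 and 0.0968 without siHNRNPH1 replicates 1 and 2 and 0.0502 without siNegative replicate 3. KIF2A fell by 0.18, with 0.0581 without siHNRNPH1 replicate 2. NRAS rose by 0.16, with 0.0572 and 0.0765 without siHNRNPH1 replicates 2 and 3. In HEK-293T, GCFC2, KIF2A and NRAS did not pass the threshold with all libraries. Without siHNRNPH1 replicate 1, GCFC2 (0.18) and KIF2A (0.23) were higher there, opposite to HT-1080 (edgeR adjusted p = 0.000632 and 1.04e-06).

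Of the 7 genes described with a higher distal share in both lines, 4 rose and 1 fell in HT-1080, against 32.7% and 32.6% of all genes. PDP1 was at 87.1, 73.6 and 88.0 CPM with siNegative and at 203, 198 and 198 CPM with siHNRNPH1, a rise of 1.20 (SE 0.06, edgeR adjusted p = 2.11e-07). NAMPT was at 337, 314 and 332 CPM and at 566, 553 and 574 CPM, a rise of 0.72 (SE 0.04, 5.43e-07). ZRANB2 rose by 0.28, BLOC1S6 rose by 0.21 and SF3A1 fell by 0.28. HUWE1, at 384.5, 275.6 and 383.3 CPM with siNegative and 404, 389 and 403 CPM with siHNRNPH1, and DNM1L did not pass the threshold. In HEK-293T, none of the 7 passed it, with log2 fold changes from -0.67 (HUWE1) to 0.19 (BLOC1S6). Without siHNRNPH1 replicate 1, all but SF3A1 passed it there, HUWE1 (-0.37) and ZRANB2 (-0.33) lower and NAMPT (0.26), BLOC1S6 (0.43), DNM1L (0.13) and PDP1 (0.12) higher, the last 2 with the opposite sign to the fit of all libraries (edgeR adjusted p from 3.31e-11 to 0.0297). Since these loci were chosen by their distal shares in the same lines, and a gene's level also sets how many models it has, the counts are a description.

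Genes of the 3' end processing machinery were not called in HEK-293T, and 11 fell and 5 rose in HT-1080. In HEK-293T, 0 of 24 passed edgeR's threshold with all 6 libraries, and 12 were higher and 9 lower without siHNRNPH1 replicate 1, where 30.5% and 31.3% of all genes were. In HT-1080, 5 of 24 were higher (20.8%) and 11 lower (45.8%), against 32.7% and 32.6% of all genes, with a median log2 fold change of -0.11 against 0.01 over all genes. CSTF2, the RNA-binding subunit of CSTF, was at 58.2, 58.8 and 60.4 CPM and at 38.6, 37.6 and 38.6 CPM, and it fell by 0.70 (edgeR adjusted p = 7.87e-07). NUDT21, the small subunit of cleavage factor Im, fell by 0.67 (5.80e-07), and CPSF4, a CPSF subunit, by 0.60 (4.65e-06). Of the 20 genes known for alternative polyadenylation, 5 were higher and 14 lower in HT-1080. In HEK-293T, 2 were higher and 3 lower, against 5.12% and 4.88% of all genes, and 12 and 5 without siHNRNPH1 replicate 1. CCND1 fell the furthest of those named above, from 1809, 1675 and 1765 CPM to 321, 333 and 325 CPM in HT-1080 (it fell by 2.49, edgeR adjusted p = 2.71e-09), while its 1 distal model was in the siNegative pool. In HEK-293T, it was at 47.9, 49.7 and 48.4 CPM and at 11.7, 18.6 and 17.9 CPM, and it fell by 1.63 (0.00917), with adjusted p of 0.0715 to 0.0749 without any one siNegative library.

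The OGT gene was at 442, 437 and 440 CPM in HEK-293T siNegative and at 116, 360 and 371 CPM with siHNRNPH1, and at 355, 287 and 344 CPM and 372, 373 and 374 CPM in HT-1080. Neither difference passed the edgeR threshold (adjusted p = 0.348 and 0.173), but in HEK-293T without siHNRNPH1 replicate 1 OGT was lower by a log2 fold change of -0.33 (edgeR adjusted p = 7.93e-10). In HT-1080, TMEM30A rose by 0.92 (edgeR adjusted p = 6.21e-07) and CLIC4 fell by 0.91 (4.25e-07), while their distal shares differed by 0.28 and -0.70 points between the siRNAs there.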

How the data were processed

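Transcript models came from IsoSeq files, 1 per pool, whose values are the positions of exons. The submitters' processing notes list GRCh38.p13 without a role, and it was taken as the build of these positions. Collapsing parameters are not given in the sources used here. The short-read values deposited are expected counts per transcript from RSEM, per the submitters' processing notes and the labels, with no scaling. They were summed per gene and rounded.

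Models of the 4 pools were joined into loci by same-strand overlap of their spans. Loci were named from RefSeq GRCh38.p14, which served for names and microRNA sequences only. The members and lists were chosen with earlier results of these data known. Named loci were the 8 per direction with the greatest shared siRNA difference, the 4 with the greatest opposite difference, the 4 with most models, and genes of the lists. The 22 loci that differ between the lines were chosen after their values were seen, as were MACF1, SPAG9, SRSF11, CNOT1, TLE4 and the few list genes given.

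Exact Clopper-Pearson 95% intervals were computed with scipy 1.17.1, and they cover counting error only. Genes were tested in each line with edgeR 4.0.16 (TMM, filterByExpr, robust quasi-likelihood test, two-sided), with Benjamini-Hochberg adjustment over all genes and a threshold of 0.05. On simulated counts, the test recovered 69% of genes changed 3-fold in HEK-293T (19620 genes) and 99% in HT-1080 (15870 genes). False calls, made on genes simulated without a change, numbered 11 among 149 calls for HEK-293T. For HT-1080 they numbered 23 among 221 calls. Each share of false calls exceeded the threshold of 0.05. Alternatives were DESeq2 1.42.0, other scaling and filters, a replicate block, and leaving out libraries. The planned checks of sequence around the ends and of short-read transcript shares were not run, since they need a genome and annotation not used here. Some items named by these rules are not reported here.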

Additional observations from a re-analysis of the deposited data

Results flagged for a closer look

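At 4 loci with distant ends, the siRNA difference in distal share had opposite signs in the lines and was largest by the smaller of both differences. They are the extreme of the 169 of 383 loci with opposite signs, there was 1 pool per group, and whether the lines differ from each other was not tested. BAZ2A, a subunit of a chromatin remodelling complex of ribosomal DNA (chr12:56595931-56598783, reverse strand), was 24.0 points lower with siHNRNPH1 in HEK-293T (11 of 14 and 12 of 22 models, a difference of -24.0) and 24.0 points higher in HT-1080 (3 of 14 and 5 of 11). The amyloid precursor protein gene APP differed by 26.7 points in HEK-293T (6 of 11 and 13 of 16) and by -14.5 points in HT-1080 (19 of 24 and 22 of 34). SLC25A32, a mitochondrial carrier, differed by 15.4 points in HEK-293T (6 of 13 and 8 of 13) and by -14.5 points in HT-1080 (12 of 22 and 6 of 15). UGDH, the enzyme that makes UDP-glucuronate, differed by 14.1 points in HEK-293T (14 of 23 and 24 of 32) and by -16.0 points in HT-1080 (10 of 17 and 6 of 14). With every end group after the first as distal, the HEK-293T difference at APP was 0.0 points. The exact intervals of the siRNAs overlapped at each of the 4 loci in each line.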

How the results depend on the processing

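The number of loci with distant ends was 4708 to 6800 over the 8 alternatives (end groups split at 100 or 500 nt, at least 2 models per group, acceptors within 10 nt joined, each pool left out), within 1.5 times of 6302. The loci with enough models, 383, were 986 with at least 5 models in each pool, 89 with at least 20 and 238 with each intron chain counted once per end group. The pooled siRNA difference in HT-1080 was 0.032 points with at least 20 models and 0.299 with every group after the first as distal. The pooled line difference was 8.26 points (siNegative) and 6.91 (siHNRNPH1) with groups split at 500 nt, and 7.55 (siNegative) with at least 5 models. Loci at least 20 points apart between the siRNAs, 13 for HEK-293T and 8 for HT-1080, were 98 and 81 with at least 5 models and 2 and 0 with at least 20. They were 8 in HEK-293T with every group after the first as distal, and 5 in HT-1080 with groups split at 500 nt. Loci at least 20 points higher in HEK-293T under both siRNAs, 21, were 106, 3 and 13 with at least 5 models, with at least 20 and with intron chains, and those lower, 1, were 4 with at least 5 models, 0 with at least 20 and 2 with every group after the first as distal. These model minimums change how many loci are compared.

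In HEK-293T, 1997 genes passed edgeR's threshold, 3982 with DESeq2, 1302 without the filter on low counts and 0 with the replicate block (4169 at an unadjusted p under 0.05). Leaving out 1 library gave 0 to 12557: 12557, 245 and 639 without siHNRNPH1 replicates 1, 2 and 3, and 20, 0 and 0 without siNegative replicates 1, 2 and 3 (edgeR, with 3517 and 3486 at an unadjusted p under 0.05 for the last pair). Of genes at loci with distant ends, 417, the counts were 991, 235, 0 and 0 to 4406. Whether the replicate numbers pair the libraries is not settled. Same-numbered deviations correlated only by 0.087, 0.098 and 0.023 in HEK-293T and by -0.002, 0.085 and 0.032 in HT-1080. Each siNegative library of HEK-293T correlated best with its own number, but not every library of the lines did. In HT-1080 the block gave 10504 genes against 10538, and leaving out siNegative replicate 2 gave 11625. The lost HEK-293T calls of HNRNPH1, HNRNPH2, HNRNPH3, PAK2, CCND1 and CD44 under the block kept their sign, with edgeR adjusted p of 0.0657 to 0.152. Calls of NRAS, GCFC2 and KIF2A in HT-1080 were lost without some single libraries (edgeR adjusted p of 0.0502 to 0.0968). The cause was not tested. At GCFC2, SINHCAF and PPP4R3A, the siHNRNPH1 line difference with groups split at 100 nt was 0.0, 3.70 and 3.23 points, and at EFCAB14 the siNegative one was 0.0 with every group after the first as distal.

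At 0 of the 383 loci were the siRNA intervals apart. Overlap of the intervals does not show that the shares are equal, and no test of single loci was made. The loci had medians of 17 to 27 models per pool, which makes the intervals wide. The part of depth in the overlap was not tested.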
